A study of Homo sapiens with 6 samples.

Results

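Many developmental transcription factors lie outside the HOX clusters. The families taken here are paired box (PAX), sine oculis (such as SIX4), TBX, LHX, NKX, GATA, DLX, IRX, MSX, OTX, EMX, FOX and SOX. Protein-coding genes carrying one of these family names and a number were taken from the gene table of an EZH2 knockdown experiment, leaving out SOX10 and FOXM1, and 93 genes of the 30015 in the table met this name rule. The rule uses names only, though it could reach only genes with reads in the table. The RNA came from HMV-II, an established line of human vaginal mucosal melanoma, and was sequenced as poly-T selected mRNA in 3 Vector and 3 shEZH2 libraries. Vector cells are labelled WT and shEZH2 cells EZH2 knockdown, with treatment given as none for both. According to the study's methods both arms received lentiviral particles and were selected with puromycin as stable lines, the Vector arm carrying a scrambled shRNA and the other arm an shRNA against EZH2. The column headings name 1 shRNA for the knockdown arm, so an effect of EZH2 loss and another effect of that shRNA cannot be told apart. The labels do not say that replicates were separate cultures, and the p-values then measure only the spread between these libraries. With bulk RNA, fewer expressing cells and less RNA per cell cannot be told apart either.

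As background, these factors bind DNA through paired boxes, T-boxes, homeodomains, forkhead domains, GATA zinc fingers or HMG boxes, and each tissue uses only some of them. EZH2 is the catalytic subunit of Polycomb repressive complex 2 (PRC2), which methylates lysine 27 of histone H3, and developmental factor genes with CpG-rich promoters are its best-known targets in cells that do not use them. Melanocytes come from the neural crest, where PAX3, FOXD3, SOX9, MSX1 and MSX2 act, and in the melanocyte lineage TBX2 and TBX3 are also expressed.

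Depth was 13400290 to 15923029 reads on genes in the Vector libraries and 16129171 to 19128939 in the shEZH2 libraries. EZH2 itself averaged 491 ± 58.0 normalized counts in Vector and 236 ± 10.7 in shEZH2 (SD, n = 3 each), a log2 fold change of -1.04. Of the 7 melanocyte markers checked, 7 were in the table, and their summed level was 75207 to 99758 normalized counts in Vector and 77746 to 83984 in shEZH2 libraries, most of it PMEL. Within that sum TYR had 7391, 4388 and 7250 normalized counts in Vector and 3097, 3194 and 3153 in shEZH2, and TYRP1 had 283, 257 and 285 against 843, 942 and 876. The table held 5 of 5 fibroblast markers, whose sum, nearly all of it LUM, was 120 to 168 in Vector and 217 to 285 in shEZH2. It held 2 of 5 keratinocyte markers, with sums of 128 to 528 and 404 to 680 that were nearly all KRT10, 2 of 3 endothelial markers, with sums of 21.4 to 67.5 and 20.05 to 26.4, and 3 of 4 leukocyte markers, with sums of 9.16 to 31.4 and 13.4 to 21.6. Vector replicate 2 stood apart: its values deviated from the other Vector libraries with gene length. The median deviation was -0.54 on the log2 scale in the shortest of 5 length classes of all genes tested and 0.42 in the longest. Against the other shEZH2 libraries, shEZH2 replicate 1 had a smaller trend, from 0.17 to -0.18. Fold changes that rest on Vector replicate 2 are therefore also given without it.

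Promoter sequence was at hand for 66 of the 93 genes (71.0%), and for 4 of the 9 genes called below. Those of NKX2-4, which rose after knockdown, and of DLX2 and FOXO1, which fell, are shown because CpG density is the promoter feature most tied to PRC2. The windows are from RefSeq on GRCh38.p14, run from 250 bases before to 50 bases after the RefSeq start, and have each CG dinucleotide in capitals. All lie on the minus strand and are written 5′ to 3′ in the direction of the gene.
NKX2-4, chr20:21397477-21397776: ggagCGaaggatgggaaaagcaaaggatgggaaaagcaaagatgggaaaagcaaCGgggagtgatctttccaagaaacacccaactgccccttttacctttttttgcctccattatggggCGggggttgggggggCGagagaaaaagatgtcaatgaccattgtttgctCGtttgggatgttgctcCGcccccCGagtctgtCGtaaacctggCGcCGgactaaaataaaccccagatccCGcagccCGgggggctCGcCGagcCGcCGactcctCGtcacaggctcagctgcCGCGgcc
DLX2, chr2:172102851-172103150: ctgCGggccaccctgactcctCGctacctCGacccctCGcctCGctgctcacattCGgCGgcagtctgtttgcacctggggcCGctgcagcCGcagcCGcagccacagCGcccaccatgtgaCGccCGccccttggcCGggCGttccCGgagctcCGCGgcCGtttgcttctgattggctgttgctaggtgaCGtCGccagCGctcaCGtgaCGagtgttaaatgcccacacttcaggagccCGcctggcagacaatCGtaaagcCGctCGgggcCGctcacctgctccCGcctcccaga
FOXO1, chr13:40666592-40666891: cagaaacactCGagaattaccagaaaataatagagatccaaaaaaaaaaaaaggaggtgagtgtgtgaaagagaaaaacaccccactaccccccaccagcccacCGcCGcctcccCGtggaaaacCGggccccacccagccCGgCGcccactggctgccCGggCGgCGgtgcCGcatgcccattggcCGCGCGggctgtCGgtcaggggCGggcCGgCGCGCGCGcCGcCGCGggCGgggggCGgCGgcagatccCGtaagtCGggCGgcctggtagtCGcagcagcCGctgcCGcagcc

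A CG was counted wherever the letters CG occur, which is the same on both strands. Of 35116 RefSeq promoter windows of this length, 96.0% held at least 1, and the median was 14. The NKX2-4 window held 19, a number that 42.9% of all windows reach. This window lies inside the gene as the table draws it, and its RefSeq start is 502 bases from the table's start. The DLX2 window held 30 and the FOXO1 window 33, reached by 22.4% and 17.2% of windows. The window of FOXP2, the remaining called gene with one, held 1. Its RefSeq start lies 328488 bases inside the gene as the table draws it, so the window is not shown. No comparison between genes that rose and fell was made because too few had a window.

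Most of the 93 genes reached the level needed for a test, and all of them had reads because the table lists no others. In 65 of the 93 the mean over the 6 libraries reached 10 normalized counts, and these genes were tested. The other 28 averaged fewer, and in 8 of them both group means were below 1. The table has no gene with fewer than 2 reads over the 6 libraries, so a family member without reads could not be among the 93, and 43 of the 136 RefSeq genes with such names were not analysed here. The 3 sine oculis, 4 DLX, 4 IRX, 2 MSX, 1 OTX and 1 EMX genes in the table were all tested. RefSeq has 6 sine oculis, 6 DLX and 6 IRX genes, of which 3, 2 and 2 were not in the table. Of its 2 MSX, 2 OTX and 2 EMX genes, 0, 1 and 1 were not in it. The tested share was 4 of 6 for PAX, 5 of 9 for TBX, 3 of 6 for LHX, 5 of 8 for NKX, 3 of 5 for GATA, 21 of 31 for FOX and 9 of 13 for SOX.

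**Figure D1:**
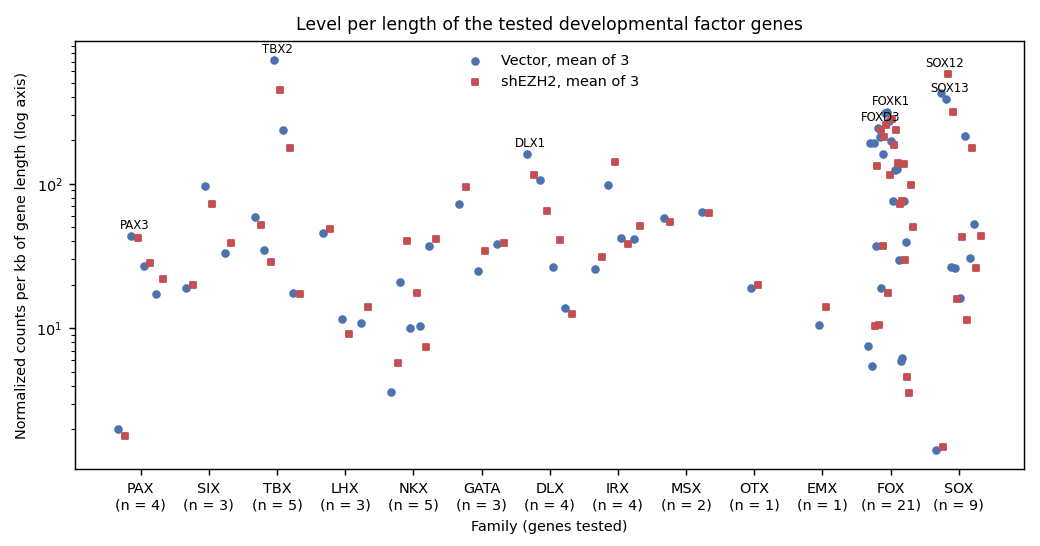
Mean normalized counts per kb of gene length (log axis) of the 65 tested genes, by family, in Vector (blue circles) and shEZH2 (red squares), each a mean of 3 libraries. TBX2 is the highest in Vector at 716 and SOX12 in shEZH2 at 575, and the pairs of points lie close together in nearly all genes.

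Levels can be compared between genes only per length, and on that scale TBX2 led in Vector with 716 normalized counts per kb. SOX12, a SOXC factor, came next with 428, followed by SOX13 with 386, FOXK1 with 314 and FOXJ3 with 308. The FOXK1 mean rests on Vector replicate 2. Without that library FOXK1 had 199.7 normalized counts per kb and lay below FOXJ3, FOXD3, FOXK2, FOXF2, TBX3 and FOXD1. In shEZH2 the order changed at the top, with SOX12 at 575 and TBX2 at 449 normalized counts per kb. PAX3, the paired-box activator of MITF, stood at 43.4 in Vector and 42.1 in shEZH2.

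At the study's threshold, an unadjusted p below 0.05 with a change over 1.5-fold, 4 of the 65 genes rose and 5 fell. This is 6.15% and 7.69%, beside 7.55% and 7.07% of all 15251 genes tested, so neither share stands away from the background. The members' median log2 fold change was -0.041, against 0.039 over all genes tested, with 30 above and 35 below 0. After Benjamini-Hochberg adjustment over all genes tested, 1 gene, TBX2, had a p below 0.05 in limma with all 6 libraries (background 4.12%). Without Vector replicate 2, adjusted p in limma was also below 0.05 for DLX2 (0.000544), FOXO1 (0.00683) and NKX2-4 (0.0224) among the 9 called genes. DESeq2 with 6 libraries gave these genes adjusted p of 0.0248, 0.0121 and 0.0247. The other called genes, DLX4, FOXC2, FOXP2, SOX15 and SOX18, stayed above 0.05 in both. Some uncalled genes, such as DLX1 (0.00265), also passed without Vector replicate 2, and no background share is given for that. The 3 Vector and 3 shEZH2 values did not overlap in 24 genes (36.9%, background 34.8%), higher in 11 and lower in 13. Without Vector replicate 2, 3 genes rose (background 7.05%) and 4 fell (background 5.64%), and 5 of the 9 calls were kept: FOXC2, NKX2-4 and SOX18 higher, DLX2 and TBX2 lower. DLX1 and SOX2 were then called lower as well.

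**Figure D2:**
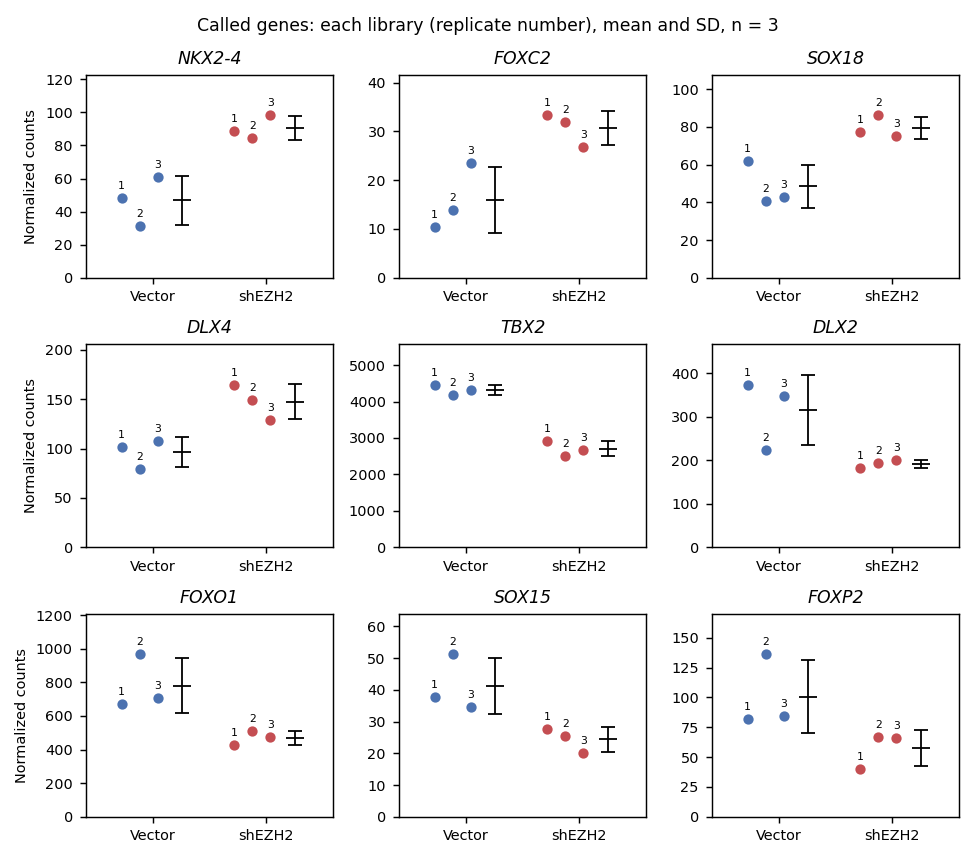
Normalized counts of the 9 called genes in each library (points, numbered by replicate) with the mean and SD of 3 libraries beside them, each axis starting at 0. Vector and shEZH2 points are apart in all 9, narrowly in FOXC2, FOXP2 and DLX2.

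Among the genes that fell, TBX2 was the most abundant. TBX2 is a T-box repressor of cell cycle inhibitor genes such as CDKN1A, known for holding off senescence in melanoma cells. It had 4463, 4179 and 4307 normalized counts in Vector and 2922, 2515 and 2678 in shEZH2, in the order of the replicate numbers, as in all series of values given here. The lowest Vector library was well above the highest shEZH2 library. The log2 fold change was -0.68 (SE 0.13, adjusted p = 0.0338 in limma). TBX2 was called at 1.5-fold in every other fit run, from -0.73 to -0.62, although its adjusted p ran from 4.19e-07 to 0.204. The antisense gene TBX2-AS1 overlaps it along its whole length and averaged 113 normalized counts in Vector and 114 in shEZH2.

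TBX3, the close relative of TBX2 that represses E-cadherin in melanoma, had 1312, 1603 and 1270 normalized counts in Vector and 1037, 1022 and 1091 in shEZH2. All Vector values were higher, but the change fell short of 1.5-fold: its log2 fold change was -0.40 (SE 0.14, adjusted p = 0.147 in limma). The other tested T-box genes, TBX19, TBX18 and TBX6, had log2 fold changes of -0.27, -0.18 and -0.07, none called. All 5 tested T-box genes thus lay below 0, with a median of -0.27 (-0.30 without Vector replicate 2). The intervals of TBX19, TBX18 and TBX6 included 0. Of the 65 genes 35 lay below 0, and of all 15251 tested 7094 did, so a shared sign in so few genes carries little weight.

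DLX1 and DLX2, a neighbouring pair of distal-less homeobox genes best known from forebrain interneurons, lie 18 kb from end to end on chromosome 2 and were both lower. DLX2 had 373, 224 and 347 normalized counts in Vector and 181, 194 and 200 in shEZH2. Vector replicate 2 was close to the shEZH2 libraries, and the groups did not overlap. Its log2 fold change was -0.68 (SE 0.21, adjusted p = 0.120 in limma) with 6 libraries and -0.91 without Vector replicate 2. Without Vector replicate 1 it was not called. DLX1 had 651, 449 and 666 against 460, 380 and 418 normalized counts. Here Vector replicate 2 fell within the shEZH2 range, and the log2 fold change was -0.47 (SE 0.19, adjusted p = 0.191 in limma) with it and -0.65 without it.

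DLX4, a distal-less gene known from placenta and blood cells, moved the other way. It had 101, 79.2 and 108 normalized counts in Vector and 165, 149 and 129 in shEZH2. All 3 shEZH2 libraries were higher, with a log2 fold change of 0.62 (SE 0.19, adjusted p = 0.117 in limma), which became 0.49 and was not called without Vector replicate 2. It was not called without shEZH2 replicate 1 either. DLX6 differed little, with a log2 fold change of -0.12 and an interval of -0.59 to 0.34. The antisense gene DLX6-AS1 shares 5492 bases with DLX6 and averaged 30.4 normalized counts in Vector and 35.1 in shEZH2. Whether counting used strand is not given, so the DLX6 reads are uncertain.

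FOXO1, a forkhead factor held out of the nucleus by AKT signalling, had 670, 968 and 706 normalized counts in Vector and 427, 508 and 477 in shEZH2. Vector replicate 2 was the highest, and every Vector library lay above every shEZH2 library. The log2 fold change was -0.71 (SE 0.18, adjusted p = 0.0701 in limma). It was -0.55 without Vector replicate 2, just inside the 1.5-fold limit. The related FOXO3 and FOXO4 had log2 fold changes of 0.15 and -0.0036, neither called.

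FOXP2, a forkhead repressor known from speech and language disorder, had 81.6, 136 and 84.5 normalized counts in Vector and 40.0, 67.1 and 65.9 in shEZH2. Its log2 fold change was -0.79 (SE 0.30, adjusted p = 0.169 in limma). The call was lost without Vector replicate 2 (-0.56) and without shEZH2 replicate 1, the highest and the lowest of the 6 libraries.

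SOX15, a SOX factor studied in muscle regeneration and placenta, had 37.6, 51.2 and 34.6 normalized counts in Vector and 27.6, 25.6 and 20.05 in shEZH2. All Vector libraries were higher, with a log2 fold change of -0.72 (SE 0.27, adjusted p = 0.166 in limma). The call was lost on leaving out either of the first Vector replicates (-0.56 without Vector replicate 2) or either of the last shEZH2 replicates. All 1993 bases of SOX15 lie within MPDU1 on the other strand, which averaged 846 normalized counts in Vector and 1129 in shEZH2. Whether counting used strand is not given in the sources used here, so the SOX15 reads are uncertain.

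Among the genes that rose, NKX2-4 was called at 1.5-fold in every other fit run. NKX2-4 is an NK2 homeobox gene close to NKX2-1 and expressed in the ventral hypothalamus. It had 48.1, 31.4 and 61.1 normalized counts in Vector and 88.6, 84.7 and 98.3 in shEZH2 (promoter shown above). The groups were clearly apart. Its log2 fold change was 0.98 (SE 0.27, adjusted p = 0.0857 in limma) and 0.73 without Vector replicate 2.

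SOX18, a SOXF factor of endothelial and lymphatic development, had 61.7, 40.7 and 42.8 normalized counts in Vector and 77.1, 86.2 and 75.4 in shEZH2. Its log2 fold change was 0.73 (SE 0.22, adjusted p = 0.116 in limma) and stayed called with any 1 library left out, at 0.62 without Vector replicate 2. Once the trend with gene length was removed from each library it was 0.51 and no longer called. The summed endothelial markers given above were low and mostly VWF, at 21.4 to 67.5 normalized counts in Vector and 20.05 to 26.4 in shEZH2. The highest sum came from VWF in Vector replicate 2. Any relation of these markers to SOX18 was not tested.

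FOXC2, a forkhead factor of mesenchyme and lymphatic valves, was a low gene with 10.5, 13.97 and 23.4 normalized counts in Vector and 33.3, 31.9 and 26.7 in shEZH2. Vector replicate 3 came near shEZH2 replicate 3. The log2 fold change was 0.97 (SE 0.35, adjusted p = 0.157 in limma), and the call was lost on leaving out Vector replicate 1, shEZH2 replicate 1 or shEZH2 replicate 2. Its close relative FOXC1, which shapes the anterior eye, was lower instead, with 762, 842 and 640 against 563, 502 and 495 normalized counts. The groups did not overlap, but its log2 fold change of -0.52 (SE 0.15, adjusted p = 0.0998 in limma) was short of 1.5-fold.

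**Figure D3:**
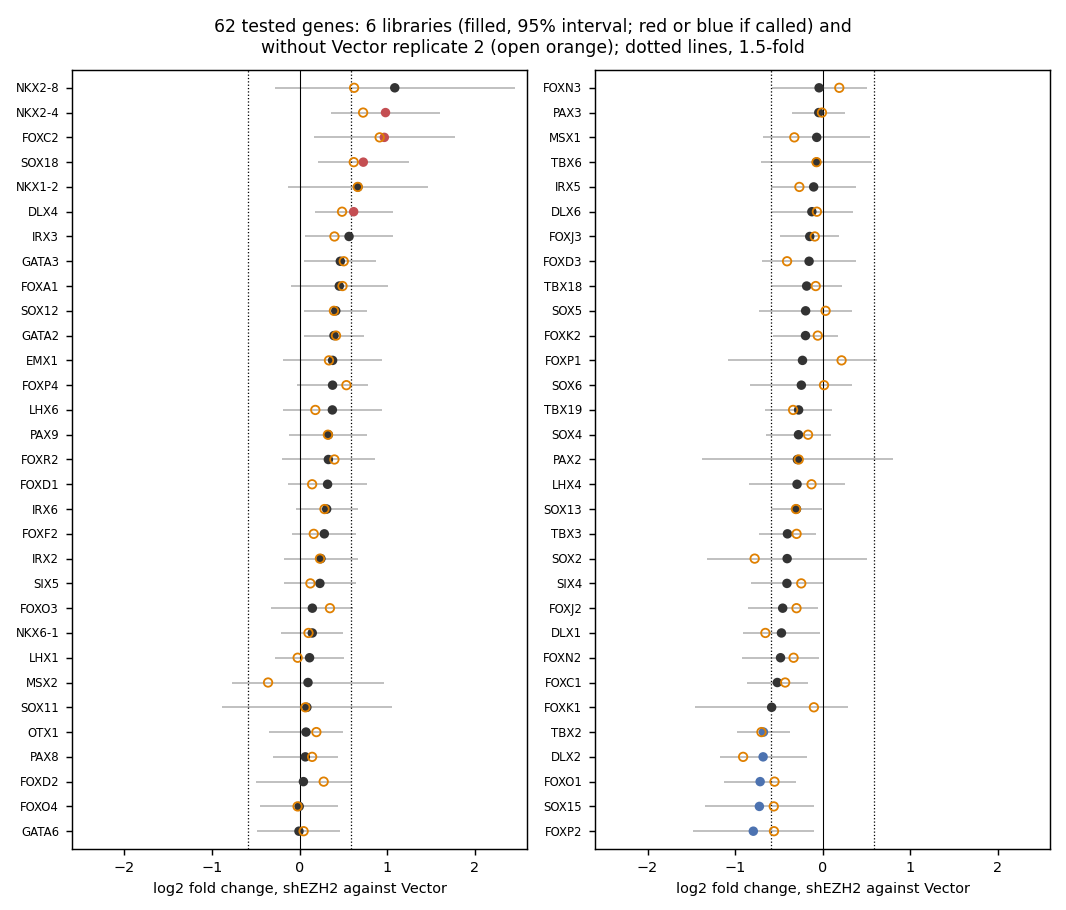
Log2 fold changes of 62 tested genes in shEZH2 against Vector, with all 6 libraries (filled points, 95% intervals, red or blue where called) and without Vector replicate 2 (open orange), with dotted lines at 1.5-fold. The 9 called genes lie beyond the dotted lines, 21 genes shown lie within 0.2 of 0, and open points of FOXK1, SOX2 and MSX2 stand away from the filled ones.

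Of the other neural crest and melanocyte lineage factors, PAX3, FOXD3, MSX1, MSX2 and SOX5 had log2 fold changes under 0.2 in size with all 6 libraries, and for FOXD3, MSX1 and MSX2 this rested on Vector replicate 2. PAX3 had 346, 362 and 326 normalized counts in Vector and 330, 325 and 347 in shEZH2. Its groups overlapped, and the log2 fold change was -0.044 with an interval of -0.34 to 0.26, which leaves out a change of 1.5-fold in either direction. FOXD3, a forkhead repressor of early neural crest, had 601, 346 and 567 against 498, 430 and 398 normalized counts, a log2 fold change of -0.16. Without Vector replicate 2, its lowest library, that was -0.41. The antisense gene FOXD3-AS1 shares 1401 bases with it and averaged 92.5 and 127 normalized counts.

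MSX1 and MSX2, muscle segment homeobox genes downstream of BMP signalling, had log2 fold changes of -0.07 and 0.10. Vector replicate 2 was the lowest of all 6 libraries in both, at 83.8 and 69.9 normalized counts, and without it the values were -0.32 and -0.36. SOX5, which modulates SOX10 in melanocytes, had a log2 fold change of -0.19, and 0.033 without Vector replicate 2. SOX2, a stem cell factor, had 57.5, 22.1 and 41.7 against 30.5, 20.8 and 35.3 normalized counts. Its groups overlapped at -0.41 on the log2 scale, and without Vector replicate 2 the change was -0.78 and called. SOX2 lies within SOX2-OT on the same strand, which averaged 9.81 and 15.8 normalized counts. SOX9, a neural crest factor with a mean under 10, had 3, 11 and 2 reads in Vector and 10, 9 and 9 in shEZH2.

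Among the abundant SOX genes, SOX12 had 2101, 1922 and 1921 normalized counts in Vector and 3164, 2324 and 2498 in shEZH2. All shEZH2 libraries were higher, at a log2 fold change of 0.41 (SE 0.16, adjusted p = 0.171 in limma). SOX12 lies wholly within the antisense gene NRSN2-AS1, which averaged 130 and 113 normalized counts. SOX13, a SOXD factor, averaged 2861 normalized counts in Vector and 2329 in shEZH2, without overlap between the groups, a log2 fold change of -0.30. The SOXC factors SOX4 and SOX11 had log2 fold changes of -0.28 and 0.08, with intervals that include 0.

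GATA2 and GATA3, zinc finger factors of blood, trophoblast and lymphoid cells, were both higher in all shEZH2 libraries without reaching 1.5-fold. GATA2 went from 320 ± 10.6 to 423 ± 58.1 and GATA3 from 84.9 ± 4.61 to 118 ± 16.4 normalized counts (SD, n = 3), with log2 fold changes of 0.39 and 0.47. The antisense gene GATA2-AS1, which overlaps GATA2, averaged 132 normalized counts in both groups. GATA6, a factor of endoderm and heart, was at -0.0062. IRX3, an Iroquois homeobox gene, had 374, 219 and 257 against 456, 371 and 404 normalized counts. Its log2 fold change was 0.57 (SE 0.22, adjusted p = 0.178 in limma), just short of the limit, and 0.40 without Vector replicate 2. Vector replicate 1 overlapped the lowest shEZH2 library, and an antisense gene that shares 1160 bases with IRX3 averaged 17.0 and 50.4 normalized counts. IRX6, IRX2 and IRX5 were at 0.31, 0.24 and -0.10, none called.

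Besides NKX2-4, no NKX gene was called. NKX2-8 had a log2 fold change of 1.09 (SE 0.59, adjusted p = 0.305 in limma), 0.62 without Vector replicate 2 and 0.80 in edgeR, but its Vector libraries were far apart, at 26.1, 4.66 and 7.13 normalized counts, and Vector replicate 1 lay above all 3 shEZH2 values of 23.8, 25.6 and 17.2. NKX1-2 and NKX6-1 were at 0.67 and 0.15. In the remaining families no gene was called. Log2 fold changes were -0.29 to 0.33 in the 4 PAX genes, -0.41 and 0.23 in SIX4 and SIX5 and -0.29 to 0.38 in the 3 LHX genes, 0.07 in OTX1 and 0.38 in EMX1. The most abundant of these, PAX8, a factor of thyroid and kidney, SIX4, SIX5, LHX1 and LHX6, were at 0.066, -0.41, 0.23, 0.11 and 0.38, and the abundant forkhead genes FOXJ3 and FOXK2 at -0.15 and -0.20. Without Vector replicate 2, in the same order, they were at 0.14, -0.24, 0.12, -0.021, 0.18, -0.09 and -0.06.

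FOXK1 shows how far 1 library can go. This widely expressed forkhead factor had 7118 normalized counts in Vector replicate 2, against 2754 and 2474 in the other Vector libraries and 2281, 2393 and 2645 in shEZH2. Its log2 fold change was -0.58 with that library and -0.10 without it. Over the 65 genes, the 32 longer ones (median length 6270 bases) had a median log2 fold change of -0.19, which was -0.04 without Vector replicate 2, and the 33 shorter ones (median length 3137 bases) had 0.23, then 0.12. All 4 genes that rose belong to the shorter group, and 3 of the 5 that fell to the longer. The part of gene length in these calls was not tested further than by removing the trend. That left 1 gene higher, NKX2-4, and 6 lower, of which DLX2, FOXO1, SOX15 and TBX2 had been called before. Over all 15251 genes tested, the same fit left 1017 higher and 1041 lower.

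Of the 56 tested genes that were not called, 10 had an unadjusted p below 0.05 and fell short of 1.5-fold: DLX1, FOXC1, FOXJ2, FOXN2, SOX13 and TBX3 lower, GATA2, GATA3, IRX3 and SOX12 higher. In 13 the whole 95% interval lay within 1.5-fold either way, among them PAX3, PAX8, GATA6, LHX1, NKX6-1, OTX1, TBX18 and FOXK2. For these the libraries bound the change in counted reads. PAX8 overlaps the antisense gene PAX8-AS1 (498 and 301 normalized counts) along nearly its whole length and FOXK2 shares 30101 bases with WDR45B (1802 and 1528) on the other strand, so with strand use unknown their reads are uncertain. For the others a 1.5-fold change lies inside the interval. In 7 genes the direction turned without Vector replicate 2, namely MSX2 and SOX5 (above), FOXN3 (-0.041, then 0.19), FOXP1 (-0.23, then 0.22), GATA6 (-0.0062, then 0.047), LHX1 (0.11, then -0.021) and SOX6 (-0.24, then 0.015). SOX6 shares 126460 bases with C11orf58 (1966 and 1650 normalized counts) on the other strand, so the SOX6 reads are uncertain too.

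Other developmental factors were taken from a further list, which was chosen with earlier results of these data known. Of its 89 genes, from families such as AP-2, RUNX, POU, engrailed and COUP, 52 were in the table and 39 were tested, of which 9 rose (23.1%, background 7.55%) and 4 fell (10.3%, background 7.07%), with a median log2 fold change of 0.21. TFAP2A, a neural crest and melanocyte factor, had 1853, 1913 and 1801 normalized counts in Vector and 2844, 2971 and 3112 in shEZH2, a log2 fold change of 0.68. NR2F1, an orphan nuclear receptor of neural development, had 72.2, 53.6 and 78.4 against 181, 172 and 131 normalized counts, a log2 fold change of 1.24. HMX1, GBX2, EN1, POU3F3, TFAP2E, RUNX1 and RUNX2 also rose. PRRX1, a mesenchymal homeobox factor, fell from 643 to 330 normalized counts, and ONECUT2, RUNX3 and VAX2 fell as well. Without Vector replicate 2, POU3F3 was no longer called and GLI1 was called higher, leaving 9 and 4, and with the length trend removed the counts were 7 and 5. Among the 12 PRC2 subunit genes, 0 rose and 1 fell, EZH2 itself. Whether this list and the 65 genes differ was not tested, and the shares of a list chosen in this way are not an independent comparison.

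**Figure D4:**
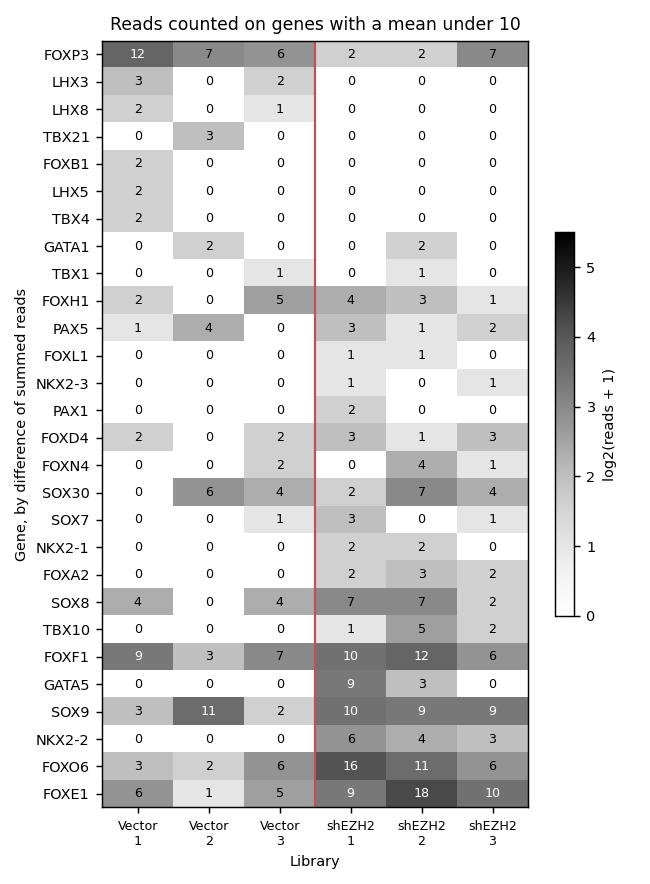
Reads counted in each library on the 28 genes with a mean under 10 (numbers, shaded by log2(reads + 1)), ordered by the difference of summed reads, with the red line between Vector and shEZH2. Zeros fill the Vector side for NKX2-2, GATA5, TBX10 and FOXA2 near one end, and FOXE1 has the largest gain in reads.

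The 28 genes with a mean under 10 were near silent in both groups. NKX2-2, a homeobox factor of the ventral neural tube and of pancreatic endocrine cells, had 0 reads in each Vector library and 6, 4 and 3 in shEZH2. Taking 3 reads for the whole Vector group, the shEZH2 reads as counted gave a 3.62-fold ratio. That ratio allows for no spread in the few shEZH2 reads, so it is not a lower limit. FOXA2, a pioneer factor of endoderm and floor plate, had 0 reads in Vector and 2, 3 and 2 in shEZH2, a 1.95-fold ratio on this basis. TBX10, a T-box gene, had 0 reads in Vector and 1, 5 and 2 in shEZH2, a 2.23-fold ratio on this basis.

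Such a pattern, reads in every shEZH2 library and in no Vector library, was met by these 3 of 28 genes (10.7%), beside 1.22% of the 14764 genes with a mean under 10 and 1.64% of the protein-coding ones. The reverse was met by 0 of 28, beside 0.853% of all and 0.944% of protein-coding genes. Reads in at least 1 shEZH2 library and no Vector library were found in 8 of 28 (28.6%, background 11.5%): FOXA2, NKX2-2, TBX10, GATA5, NKX2-1, NKX2-3, FOXL1 and PAX1. Reads in at least 1 Vector library and no shEZH2 library were found in 6 of 28 (21.4%, background 10.8%): FOXB1, LHX3, LHX5, LHX8, TBX21 and TBX4. The shEZH2 libraries held 51738188 reads in all and the Vector libraries 44993182. At a few reads per library these genes remain at the lower limit of detection. A gene with reads in 1 group only entered the table, and so the 28 or the background, through that group alone. These shares are therefore a description and no test.

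With no minimum level, limma gave NKX2-2 an adjusted p of 0.0699, FOXA2 0.155, TBX10 0.1997 and FOXE1 0.319, and edgeR gave 0.159, 0.320, 0.308 and 0.348. NKX2-2, FOXA2 and TBX10 could be fitted only because of their shEZH2 reads, so these values add no independent support. FOXE1, a thyroid and palate factor, had 6, 1 and 5 reads in Vector and 9, 18 and 10 in shEZH2, without overlap. GATA5, a factor of heart and gut, had 9 and 3 reads in shEZH2 replicates 1 and 2 and 0 in the other 4 libraries, so its groups overlap. Silent in both groups, with means below 1, were FOXB1, FOXL1, GATA1, LHX5, NKX2-3, PAX1, TBX1 and TBX4, none with more than 2 reads in any library. FOXD4, with 4 reads in Vector and 7 in shEZH2, shares near-identical copies and is uncertain.

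Some of these genes are neighbours. NKX2-4, NKX2-2, PAX1 and FOXA2 follow each other over 1190 kb of chromosome 20 (GRCh38, 21395367 to 22585455), and NKX2-4, NKX2-2 and FOXA2 had more reads in every shEZH2 library than in any Vector library. PAX1 had 2 reads, both in shEZH2 replicate 1. Together they had 48.1, 31.4 and 61.1 normalized counts in Vector and 98.1, 90.2 and 103 in shEZH2, most of them from NKX2-4. In the paralogous stretch of chromosome 14 (36516392 to 37596059, 1080 kb), NKX2-1, NKX2-8, PAX9 and FOXA1 summed to 177, 140 and 126 against 225, 204 and 164 normalized counts, with log2 fold changes of 1.09, 0.33 and 0.45 for NKX2-8, PAX9 and FOXA1 and no call. One overlap remained there, since Vector replicate 1 was above shEZH2 replicate 3. FOXF1, FOXC2 and FOXL1, within 72 kb of chromosome 16, summed to 19.9, 17.5 and 30.5 against 43.8, 42.3 and 32.5 normalized counts. Not all neighbours were higher: of the 12 stretches that join members less than 1500 kb apart, the summed values were higher in shEZH2 without overlap in 2 and lower without overlap in 5. Among the latter were DLX1 with DLX2, and TBX2 with TBX4. These stretches were drawn after the values were seen and carry no test. Among all single genes tested the groups did not overlap in 34.8%, and no share over other stretches was computed.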

How the data were processed

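The samples were 3 libraries of Vector and 3 of shEZH2 HMV-II cells. The authors used featureCounts (1.5.0-p3) for counting and DESeq2 (1.20.0) for the comparison. Values deposited for each library are a signal: reads on a gene divided by the size factor of that library, called normalized counts here. In every library 100% of them were whole multiples of 1 read within a relative tolerance of 1e-06, which gave back the reads. The authors' fold change and p-value columns were not used. The submitters' notes name hg19, but 47.7% of 20592 genes shared an end with GRCh38 and 0.709% with GRCh37, so coordinates are given as GRCh38. The aligner and strand setting are not given in the sources used here. Columns of single libraries numbered 6, and each was used.

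The test was limma 3.58.1 (mean-variance trend) on log2(normalized count + 1), for genes averaging 10 normalized counts or more. The added 1 can lower the fold changes of low genes in size: FOXC2 was at 1.01 with 0.1 added and 0.81 with 5. Count models gave FOXC2 0.93 (edgeR) and 0.92 (DESeq2) and NKX2-8 0.80 and 0.79, below the limma values. Benjamini-Hochberg adjustment covered all 15251 genes tested. An exact permutation test of 3 against 3 libraries cannot go below p = 0.1 and was not used for single genes. Intervals are 95% intervals of the limma fit. The models were tested on simulated data. Alternatives were edgeR 4.0.16 and DESeq2 1.42.0 on the recovered reads, TMM factors, other pseudocounts (0.1 and 5), other minimum means (none and 50), protein-coding genes only, removal of the length trend in each library, array weights, a replicate block, other thresholds and each library left out. An edgeR fit with no minimum was added after seeing the data. Genes named by rule were those called, the 2 most abundant of each family, untested genes with groups apart, and known neural crest or melanoma factors. Others were chosen after their values were seen. Members and lists were chosen with earlier results of these data known. Results of some genes are not reported here. R 4.3.3 was used.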

Additional observations from a re-analysis of the deposited data

How the results depend on the processing

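The members called higher were 4 in the fit described; 8 with no minimum level and 9 in edgeR with no minimum, where FOXA2, FOXE1, NKX2-2 and TBX10 (and GATA5 in edgeR) joined, 1 with the length trend removed, and 0 at a log2 fold change above 1 or by adjusted p. Those called lower were 5, and 0 or 1 by these last thresholds. Leaving out each library in turn gave 2 to 5 higher and 3 to 6 lower. The lowest counts came without shEZH2 replicate 1 and without Vector replicate 1. The members' median log2 fold change of -0.041 became 0.074 with array weights and ran from -0.075 to 0.015 with libraries left out; TMM factors gave -0.045. Over all genes, 1151 higher and 1078 lower became 463 and 335 above a log2 fold change of 1. They became 345 and 279 by adjusted p together with the fold, and 1017 and 1041 with the length trend removed. Leaving out each library in turn gave 849 to 1525 higher and 774 to 1318 lower over all genes. With no minimum level, 1701 of 30015 genes were higher in limma and 1625 in edgeR. The same replicate numbers correlated at 0.28, 0.22 and -0.11, so they were not taken as pairs, and a replicate block gave 4 higher and 5 lower, the same genes. For the genes named by rule, no value of 657 changed direction while called, 37 lost a call and 7 gained one. The EZH2 change was called in all 21 settings, from -1.19 to -0.96. Depth limits the 28 genes with a mean under 10. The cause of each lost call was not tested.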
